A study of Mus musculus with 8 samples.

Results

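The EGF family of growth factors and its receptors were followed in mouse small intestinal organoids. The 10 genes were the receptors Egfr, Erbb2 and Erbb3, the ligands Egf, Tgfa, Areg, Ereg, Hbegf and Btc, and Errfi1, an intracellular inhibitor of the activated receptors. They were found by matching the RefSeq accession carried by each array probe to these symbols. The match gave 19 probes for the 10 genes, out of 32110 genes on the array. EGF family ligands are made as membrane-anchored precursors and are released by cell surface proteases. A bound receptor pairs with a second ErbB receptor and signals through the RAS-ERK and PI3K-AKT cascades. In the crypt, Paneth cells and other epithelial cells make such ligands, and EGF is a standard part of the medium in which intestinal organoids are grown.

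Wild-type organoids from 2 independently established lines were kept in Matrigel for 6 days in 4 media. Control organoids had no added compound. The second group had 3 µM CHIR99021, an inhibitor of the kinase GSK3 that activates Wnt signalling. The third had 1 mM valproic acid (VPA), a histone deacetylase inhibitor, and the fourth had both compounds at those doses. All groups shared the culture method, whose published medium contains EGF, so ligand made by the cells came on top of added ligand. Each line gave 1 array per medium, 8 arrays in all, so each group has n = 2 and each line is a single established culture.

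Each array compared Cy5-labelled RNA of one culture with Cy3-labelled control RNA of the same line, and the values below are log2 ratios of Cy5 over Cy3. On the control arrays both dyes held control RNA, so their ratios show the dye offset of each probe. No array had its dyes swapped, and every comparison is therefore between groups of arrays and not against 0. A log2 difference of 1 is a doubling. Each line filled 1 slide, so line and slide cannot be told apart. A change was called at an adjusted p under 0.05 in limma, Benjamini-Hochberg adjusted over the 19255 genes tested.

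In the Cy5 channel, 60.6% to 64.6% of an array's spots exceeded background, and no spot of the 10 genes was saturated. All 10 epithelial markers (among them Epcam and Cdh1) were above background on all 8 arrays. The endothelial markers Pecam1, Cdh5, Kdr, Tek and Emcn and the fibroblast markers Dcn and Lum were above background on 0 arrays. Among all tested genes, CHIR99021 gave 22 higher and 194 lower calls, VPA 1267 higher and 823 lower, and the combination 1623 higher and 1366 lower. Median centring in place of loess gave 866 higher and 263 lower calls for VPA, and 1390 and 742 for the combination.

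Of the 10 genes, 9 could be tested. Ereg (epiregulin), the ligand left out, has 1 probe, and it was not well above background in either dye on any of the 8 arrays. Its net Cy5 signal ran from 4.5 to 24, against medians of 8.5 to 11 for the negative control spots. Btc has a second probe that was also above background on 0 arrays in either dye, with a net Cy5 signal of 2 to 12.5. Egf was above background in Cy5 on all 8 arrays, but in the Cy3 control RNA on 4 only, those of line 1. The fourth Erbb3 probe, A_52_P133607, was above background on 5 arrays in Cy5 and 3 in Cy3, and the second Tgfa probe on 8 and 6. The other member probes were above background on all 8 arrays in both dyes, except Erbb3 probe A_51_P488243, which reached it on 7 in Cy5. Of 512 readings of the 64 member spots, 20 were marked as outliers and left out.

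The clearest pattern lay in the receptors. Egfr and Erbb2, which pair with each other on ligand binding, both fell with VPA and with the combination. Egfr was close to its control level with CHIR99021 alone. Erbb2 was 0.39 below control with CHIR99021 alone, which did not pass (adjusted p = 0.133, limma). Of the ligands, Btc rose with CHIR99021 alone. Areg had the highest ratios, at 1.26 or more in every treated culture, but its 2 lines lay far apart and it did not pass the test.

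**Figure D1:**
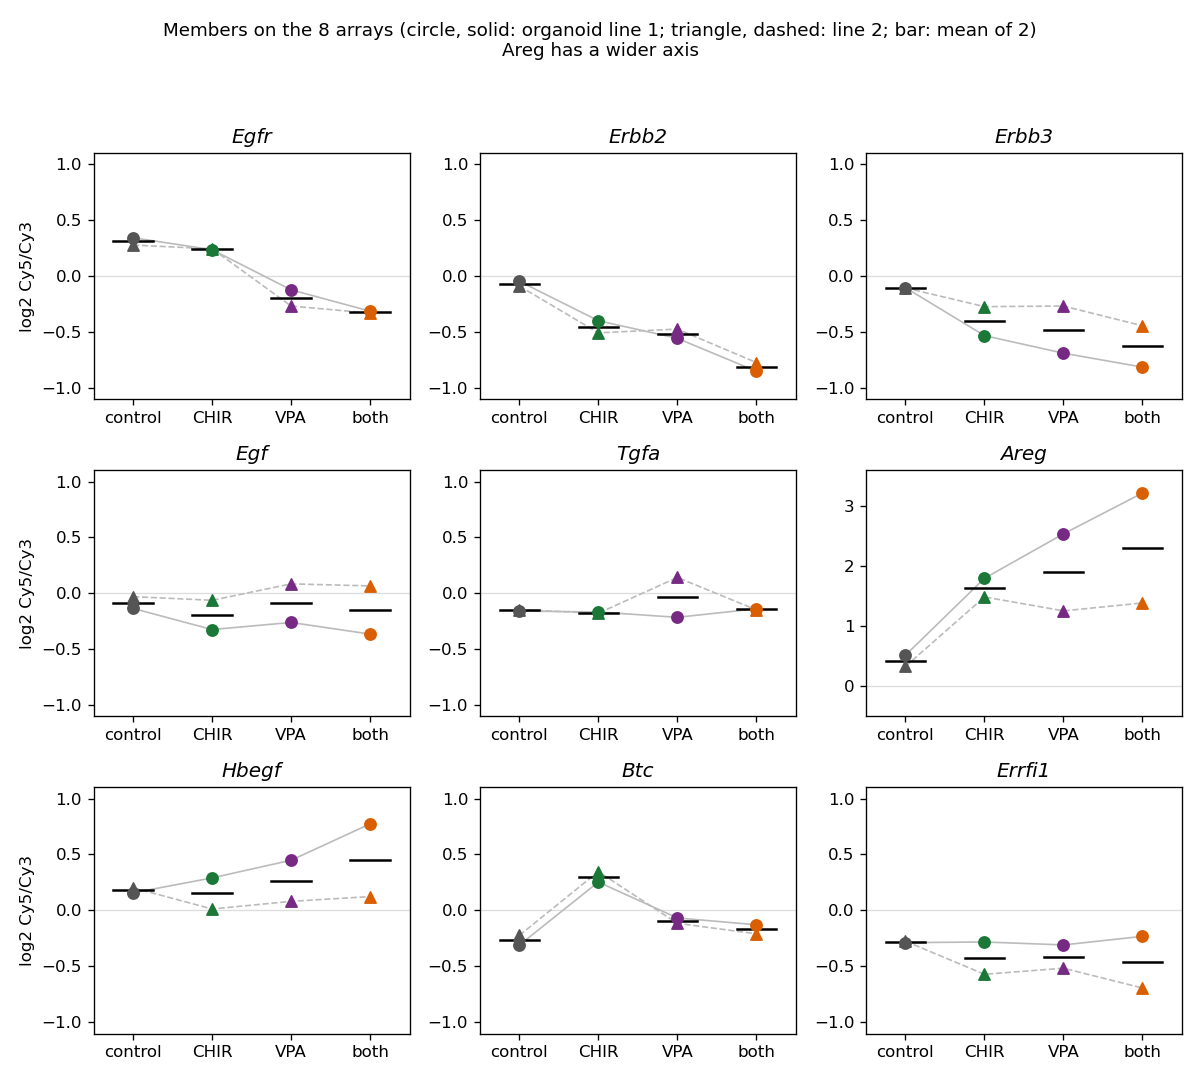
Log2 Cy5/Cy3 ratio (y axis) of the 9 tested genes in control, CHIR99021 (CHIR), VPA and CHIR99021+VPA (both) organoids; circles are line 1, triangles line 2 and bars the mean of 2 arrays. Egfr, Erbb2 and Btc show near-equal values in both lines, whereas Areg with both compounds reads 3.22 in line 1 and 1.39 in line 2.

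Egfr encodes the receptor for Egf, Tgfa, Areg, Ereg, Hbegf and Btc. Its control arrays read 0.345 in line 1 and 0.28 in line 2. The CHIR99021 arrays read 0.24 and 0.25, the VPA arrays -0.12 and -0.27, and the arrays of the combination -0.31 and -0.33. All 4 arrays with VPA were below all 4 arrays without it. With VPA, Egfr fell by 0.51 ± 0.09 (SE; adjusted p = 0.0197, limma), which is 1.42-fold lower, and in both lines. With the combination it fell by 0.63 ± 0.09 (adjusted p = 0.00648, limma), 1.55-fold lower. With CHIR99021 alone the difference was -0.07 ± 0.09 (95% interval -0.28 to 0.14, adjusted p = 0.841, limma). Against CHIR99021 alone, the combination was lower by 0.56 ± 0.09 (adjusted p = 0.0147, limma).

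In the order of levels, control and CHIR99021 stood at 0.31 and 0.24, VPA at -0.19 and the combination at -0.32. Only the step between CHIR99021 and VPA passed the test (-0.44 ± 0.09, adjusted p = 0.0207, limma, a comparison added after the data were seen). The step between VPA and the combination was -0.13 (adjusted p = 0.618, limma). The fall with the combination rested on both control arrays. Leaving out control line 1 gave adjusted p = 0.0735 and leaving out control line 2 gave 0.0575 (limma). The fall with VPA ended without control line 1 (adjusted p = 0.167), control line 2 (0.13) and VPA line 2 (0.0695) in limma. It also ended with median centring (0.0897), with only the compared groups fitted (0.0561) and with the VPA ratios tested against 0 (-0.19, adjusted p = 0.1), so in 6 of 18 alternatives. Against CHIR99021 alone, the call ended without control line 1 or control line 2 (adjusted p = 0.0507 each), CHIR99021 line 1 (0.089), CHIR99021 line 2 (0.0989) and CHIR99021+VPA line 1 (0.0574) in limma, and with median centring (0.115), the mean of the probes (0.0522) and only the compared groups fitted (0.0787).

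The array carries 4 Egfr probes, of which A_52_P106259 was the brightest, with 10 spots, and gave the values above. A second probe with 10 spots, A_51_P392242, fell by 0.50 with VPA (adjusted p = 0.0235, limma over 25624 probes) and by 0.62 with the combination (adjusted p = 0.00795). Its accession differs from that of the first probe, so the fall was read by probes annotated to 2 different Egfr transcripts. The single-spot probes A_52_P56471 and A_52_P674338 gave -0.53 and -0.37 with VPA (adjusted p = 0.0695 and 0.144, limma) and -0.47 and -0.37 with the combination (adjusted p = 0.0775 and 0.127, limma). All 4 probes were lower in both comparisons. On A_52_P106259, the spots of control line 1 ran from 0.30 to 0.385, and those with the combination in line 1 from -0.37 to -0.21. In line 2 they ran from 0.21 to 0.34 and from -0.40 to -0.22. No spot of a control array overlapped one of an array with VPA.

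**Figure D2:**
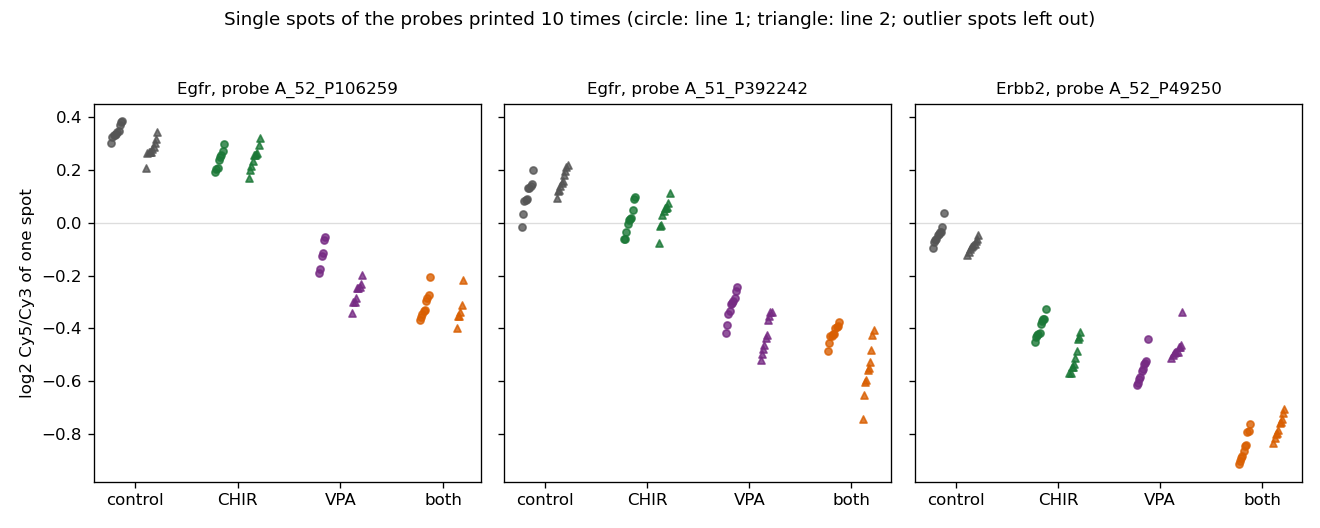
Log2 Cy5/Cy3 ratio (y axis) of single spots of the 2 Egfr probes and the Erbb2 probe printed 10 times per array, in control, CHIR99021 (CHIR), VPA and CHIR99021+VPA (both) organoids; circles are line 1, triangles line 2, outlier spots are left out. Spots of one array are repeat readings of 1 RNA sample: on Egfr probe A_52_P106259 the SD between spots of an array was 0.026 to 0.061, against a fall of 0.63 with both compounds.

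Erbb2 encodes the receptor that binds no ligand itself and serves as the partner of the others. Its control arrays read -0.044 in line 1 and -0.086 in line 2. CHIR99021 gave -0.40 and -0.50, VPA -0.55 and -0.47, and the combination -0.85 and -0.77. Both combination arrays were the lowest and both control arrays the highest, with the single compounds between and overlapping. With the combination, Erbb2 fell by 0.74 ± 0.09 (adjusted p = 0.00388, limma), 1.67-fold lower. With VPA it fell by 0.45 ± 0.09 (adjusted p = 0.0279, limma), 1.36-fold lower. With CHIR99021 the difference was -0.39 ± 0.09 and did not pass (95% interval -0.60 to -0.17, adjusted p = 0.133, limma).

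The combination read below each single compound in both lines. The difference was -0.36 against CHIR99021 (adjusted p = 0.0549, limma, and 0.0403 with the line as a replicate block) and -0.30 against VPA (adjusted p = 0.211, limma). In the order of levels, none of the neighbouring steps passed in the fit without the block, and the step from CHIR99021 to VPA was -0.06 (adjusted p = 0.701, limma). The departure from additivity was 0.09 ± 0.13 (adjusted p = 1, limma; 95% interval -0.21 to 0.39). Erbb2 with the combination lost its call without control line 1 (adjusted p = 0.0529, limma). With VPA it ended without control line 1 (0.2), control line 2 (0.168), VPA line 1 (0.093), VPA line 2 (0.0645) and either CHIR99021 array (0.0537 each, adjusted p in limma). It also ended with outlier spots kept in the background model (0.11), Agilent's ratios (0.0518), median centring (0.143) and only the compared groups fitted (0.0594), so in 10 of 18 alternatives.

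The second Erbb2 probe, A_51_P216179, fell by 0.47 with the combination (adjusted p = 0.0354, limma over 25624 probes). It gave -0.41 with VPA (adjusted p = 0.0662) and -0.42 with CHIR99021 (adjusted p = 0.185) in limma. For the combination against CHIR99021 this dimmer probe gave -0.05, far from the -0.36 of the first, so the lower level with both compounds than with CHIR99021 was read by 1 of the 2 probes. On the first probe, the 10 spots of the combination arrays ran from -0.91 to -0.76 in line 1 and from -0.83 to -0.705 in line 2. The control spots ran from -0.094 to 0.037 and from -0.12 to -0.049.

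Promoters of the 2 receptors that fell together are shown with those of Areg and Btc, ligands whose ratios with CHIR99021 lay above control in both lines. The windows hold the 250 bases before each gene's start, 5′ to 3′ on the gene's strand, from RefSeq on GRCm38.p6 (the array files use an older build). Capitals mark matches on either strand to the GC box GGGCGG, the TCF/LEF motifs CTTTGA and CTTTGT, the AP-1 motif TGANTCA or the cAMP response element (CRE) TGACGTCA; no match overlapped another. Egfr lies at chr11:16751953-16752202 and Erbb2 at chr11:98412234-98412483, both on the plus strand. Areg lies at chr5:91139349-91139598 on the plus strand and Btc at chr5:91402995-91403244 on the minus strand.
Egfr: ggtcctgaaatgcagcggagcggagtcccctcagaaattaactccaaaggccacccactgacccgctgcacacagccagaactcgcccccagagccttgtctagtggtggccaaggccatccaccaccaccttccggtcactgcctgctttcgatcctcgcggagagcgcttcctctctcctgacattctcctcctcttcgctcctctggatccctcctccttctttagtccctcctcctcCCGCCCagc
Erbb2: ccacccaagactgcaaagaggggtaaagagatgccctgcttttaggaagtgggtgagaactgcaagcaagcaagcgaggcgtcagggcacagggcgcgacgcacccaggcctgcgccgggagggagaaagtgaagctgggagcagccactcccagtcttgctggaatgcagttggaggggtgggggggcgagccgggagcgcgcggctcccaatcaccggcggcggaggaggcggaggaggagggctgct
Areg: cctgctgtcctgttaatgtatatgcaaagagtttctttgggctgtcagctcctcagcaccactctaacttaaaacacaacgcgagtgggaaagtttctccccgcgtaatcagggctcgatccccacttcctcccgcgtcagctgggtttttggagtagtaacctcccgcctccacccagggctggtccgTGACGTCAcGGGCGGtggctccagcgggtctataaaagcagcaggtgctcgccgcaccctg
Btc: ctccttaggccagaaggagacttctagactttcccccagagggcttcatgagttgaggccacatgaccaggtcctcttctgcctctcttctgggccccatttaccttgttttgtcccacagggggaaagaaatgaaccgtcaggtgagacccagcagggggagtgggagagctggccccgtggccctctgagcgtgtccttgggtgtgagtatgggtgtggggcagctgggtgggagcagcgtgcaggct

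The Egfr window held 1 GC box, read on the opposite strand, and the Areg window 1 CRE followed by 1 GC box. Neither the Erbb2 nor the Btc window held any of the 5 motifs. Among all 32851 promoter windows of this length, 32.7% held the GC box, 1.55% the CRE, 13.8% CTTTGA, 16.5% CTTTGT and 6.75% the AP-1 motif. Of the other members with windows, Tgfa held 2 GC boxes and the 2 Egf windows none of the motifs. One of the 2 Errfi1 windows held 1 CTTTGA and 1 CTTTGT, and the other 3 GC boxes and 1 CRE. The table held windows for 7 of the 10 members, all except Erbb3, Ereg and Hbegf. G and C made up 60.8% of the Egfr window, 66.0% of the Erbb2 window, 57.2% of the Areg window and 59.6% of the Btc window, against a median of 52.4%. The Btc window held 4 CpG sites, against 11, 16 and 15 in the Egfr, Erbb2 and Areg windows and a median of 6.

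Erbb3 encodes a receptor with little kinase activity of its own that binds neuregulins and recruits PI3K. Its brightest probe read -0.10 on both control arrays. CHIR99021 gave -0.53 and -0.27, VPA -0.69 and -0.27, and the combination -0.81 and -0.44 in lines 1 and 2. All 6 treated arrays were below both control arrays, and line 1 was lower than line 2 in each treated group. The difference with the combination was -0.52 ± 0.19 (adjusted p = 0.113, limma), and -0.30 and -0.37 with CHIR99021 and VPA (adjusted p = 0.593 and 0.266). With the line as a replicate block, the difference with the combination passed (adjusted p = 0.0223, limma). On Agilent's own ratios, which carry no offset, it was -1.45 ± 0.25 (adjusted p = 0.0189, limma). The net Cy5 signal of this dim probe was 49 to 184, and an offset of 50 was added before taking logs. The part of the offset in the gap between these 2 values was not tested.

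The other Erbb3 probes differed among themselves. A_51_P342050 read 0.20 on both control arrays, -0.34 and -0.33 on the VPA arrays, and -0.51 and -0.33 for the combination. It fell by 0.54 with VPA (adjusted p = 0.0192) and by 0.62 with the combination (adjusted p = 0.00758), limma over 25624 probes. A_51_P488243 read 0.80 on the CHIR99021 array of line 2, where the other 3 probes were all below their control values. Its other ratios ran down to -0.52, and its difference with the combination was -0.46 (adjusted p = 0.43, limma). A_52_P133607 gave -0.13 with VPA and -0.29 with the combination (adjusted p = 0.477 and 0.0982, limma).

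**Figure D3:**
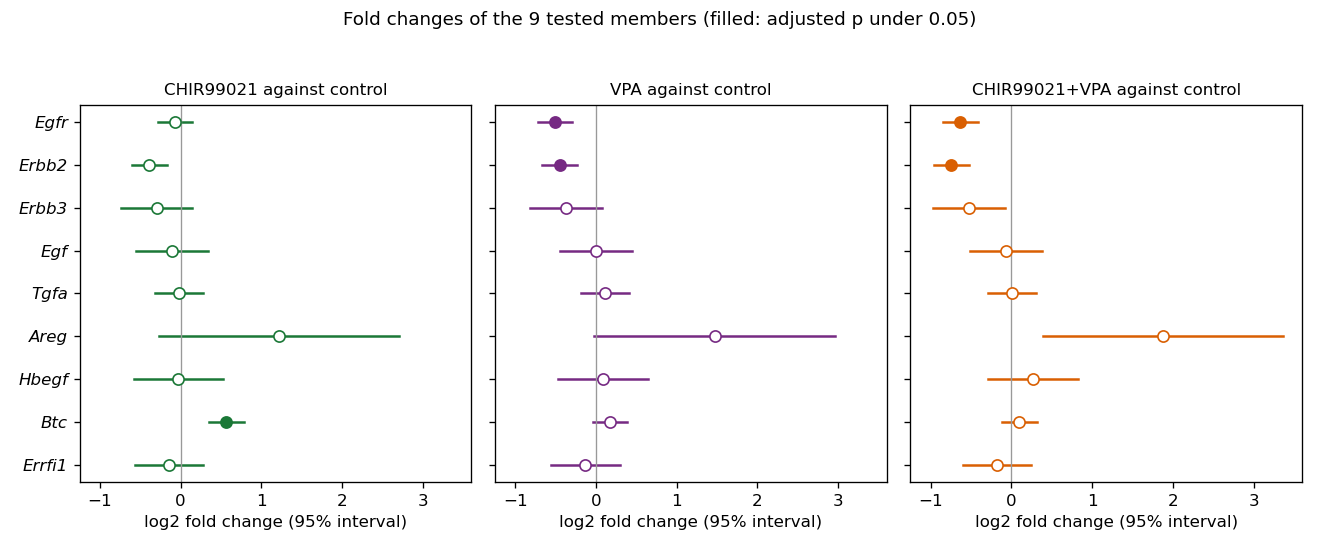
Log2 fold change (x axis) of the 9 tested genes against control for CHIR99021, VPA and both compounds; points are estimates from limma, lines 95% intervals, filled points have an adjusted p under 0.05. Egfr and Erbb2 pass with VPA and with both compounds, Btc with CHIR99021 alone, and the intervals of Areg are the widest.

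Areg encodes amphiregulin, a ligand of Egfr released by the protease Adam17. Its control arrays read 0.52 in line 1 and 0.33 in line 2. CHIR99021 gave 1.80 and 1.49, VPA 2.54 and 1.26, and the combination 3.22 and 1.39. Each treated array lay above both control arrays. In line 1 the 3 treated cultures differed widely, at 1.28, 2.02 and 2.70 above their control, whereas in line 2 they lay close together, at 1.16, 0.92 and 1.06 above it. The mean difference from control was 1.22 ± 0.62 for CHIR99021, 1.47 ± 0.62 for VPA and 1.88 ± 0.62 for the combination (SE). None passed the test (adjusted p = 0.496, 0.197 and 0.0931, limma). With the line as a replicate block, VPA and the combination passed (adjusted p = 0.0431 and 0.0158, limma), and CHIR99021 did not.

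The spread of Areg between lines decided these values. Without the combination array of line 2 the difference was 2.79 (adjusted p = 0.0188, limma). With the CHIR99021 and control arrays fitted alone, CHIR99021 gave the same 1.22 with an SE of 0.13 (adjusted p = 0.00616, limma). The order of the treated groups, combination above VPA above CHIR99021, held in line 1 and not in line 2, where CHIR99021 was highest. None of the neighbouring steps passed (adjusted p = 0.853, 0.833 and 0.496, limma). The control RNA itself differed between the lines. Its normalised log2 Cy3 level was 8.505 ± 0.18 in line 1 and 9.73 ± 0.06 in line 2, a difference of 1.22. The SD is over the 4 arrays of a line, which share 1 control source. For the other tested members, line 2 less line 1 ran from -0.63 (Egf) to 0.22 (Btc). The net Cy5 signal with the combination was 5543 in line 1 and 3790 in line 2, against 580 and 1834 in the controls. Thus the line with the higher ratios was the one with the lower control level, which is also the divisor of these ratios. Line and slide cannot be told apart here.

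Btc encodes betacellulin, a ligand of Egfr and Erbb4. Its control arrays read -0.31 and -0.22, CHIR99021 0.25 and 0.35, VPA -0.067 and -0.115, and the combination -0.13 and -0.21, in lines 1 and 2. The CHIR99021 arrays stood above all the others and did not overlap them. Btc rose by 0.57 ± 0.09 with CHIR99021 (adjusted p = 0.0468, limma), 1.48-fold higher, with 0.56 in line 1 and 0.57 in line 2. The combination was 0.47 ± 0.09 below CHIR99021 alone, and this fall passed (adjusted p = 0.025, limma), as did the fall from CHIR99021 to VPA of 0.39 (adjusted p = 0.0286, limma). VPA alone gave 0.18 ± 0.09 and the combination 0.10 ± 0.09 against control (adjusted p = 0.277 and 0.534, limma). In the order of levels, VPA, the combination and control followed CHIR99021 with no passed step between neighbours (adjusted p = 0.79 and 0.534, limma).

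The rise of Btc lay close to the threshold and ended in 13 of 18 alternatives. Leaving out any 1 of the 8 arrays ended it: adjusted p was 0.445 without control line 1, 0.376 without control line 2, 0.187 and 0.289 without CHIR99021 line 1 and line 2, 0.0582 without either VPA array and 0.0545 without either combination array (limma). Agilent's own ratios gave 0.78 (adjusted p = 0.0934, limma). Median centring gave adjusted p = 0.206, outlier spots kept in the background model 0.408 and a variance trend 0.0533 (limma). The mean of both probes, one of them not above background, gave 0.34 (adjusted p = 0.181, limma). The fall from CHIR99021 to the combination ended without either control array (adjusted p = 0.071 each), CHIR99021 line 1 (0.098), CHIR99021 line 2 (0.155), CHIR99021+VPA line 1 (0.0702) and CHIR99021+VPA line 2 (0.0684), in limma. It also ended with outlier spots kept (0.118), Agilent's ratios (0.0608), median centring (0.159), the mean of both probes (0.114) and only the compared groups fitted (0.112). Its direction held in all of these.

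Hbegf, the heparin-binding ligand, split by line. Line 1 read 0.16 in control and then 0.29 (CHIR99021), 0.45 (VPA) and 0.77 (combination). Line 2 read 0.20 in control and 0.01, 0.08 and 0.12. All 3 treated cultures of line 1 were above their control and all 3 of line 2 were below it. The mean differences of -0.03, 0.09 and 0.27 (SE 0.23 each) did not pass (adjusted p = 0.984, 0.867 and 0.508, limma).

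Egf, the founding ligand, showed no called change and line-dependent ratios. Line 1 read -0.13 in control and -0.32, -0.26 and -0.36 with CHIR99021, VPA and the combination, and line 2 read -0.03, -0.06, 0.09 and 0.07. The 95% interval of the difference with the combination ran from -0.51 to 0.38. Tgfa, a ligand that Paneth cells make, read between -0.21 and -0.14 on 7 arrays and 0.14 on the VPA array of line 2. On that array the 10 spots of the probe ran from 0.06 to 0.24, so the reading was not that of a single spot. Its difference with the combination was 0.01 (95% interval -0.29 to 0.31), which leaves room for changes of up to about that size. Errfi1, the feedback inhibitor of the receptors, read -0.29, -0.28, -0.31 and -0.23 in line 1 and -0.27, -0.57, -0.52 and -0.69 in line 2, in the order control, CHIR99021, VPA, combination. The treated cultures of line 2 were below their control, those of line 1 near it, and no difference passed (adjusted p = 0.832, 0.712 and 0.566, limma).

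Counted over the 9 tested genes, CHIR99021 raised 1 (Btc) and lowered 0, where 0.114% of all tested genes rose and 1.01% fell. VPA lowered 2 (Egfr and Erbb2) and raised 0, where 4.27% of all genes fell and 6.58% rose. The combination lowered the same 2 and raised 0, where 7.09% of all genes fell and 8.43% rose. Against CHIR99021 alone, the combination lowered 2 (Egfr and Btc), and raised 0, where 3.81% of all genes fell and 6.21% rose. From CHIR99021 to VPA, 2 fell (Egfr and Btc) and 0 rose, where 7.61% of all genes fell and 10.3% rose. Against VPA alone, 0 of 9 passed in limma, with 1 (Erbb2) at an unadjusted p under 0.05, and 1.12% of all genes changed (0.0883% rose and 1.03% fell). The median difference of the 9 genes was -0.07, -0.01 and -0.07 for CHIR99021, VPA and the combination, beside medians of 0.01, 0.00 and 0.01 over all genes tested. These comparisons share their control arrays and are not independent of each other.

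No member departed from additivity after adjustment, and neither did any of the 19255 genes (0.00%) in limma, where 511 had an unadjusted p under 0.05. Btc had the lowest unadjusted p among the members, 0.00163 for a departure of -0.64 ± 0.13 (adjusted p = 1 in limma). It read -0.62 in line 1 and -0.66 in line 2 and did not pass. Added to VPA, CHIR99021 gave Btc a difference of -0.08 (adjusted p = 0.79, limma). The departure from additivity of Egfr was -0.06 ± 0.13.

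**Figure D4:**
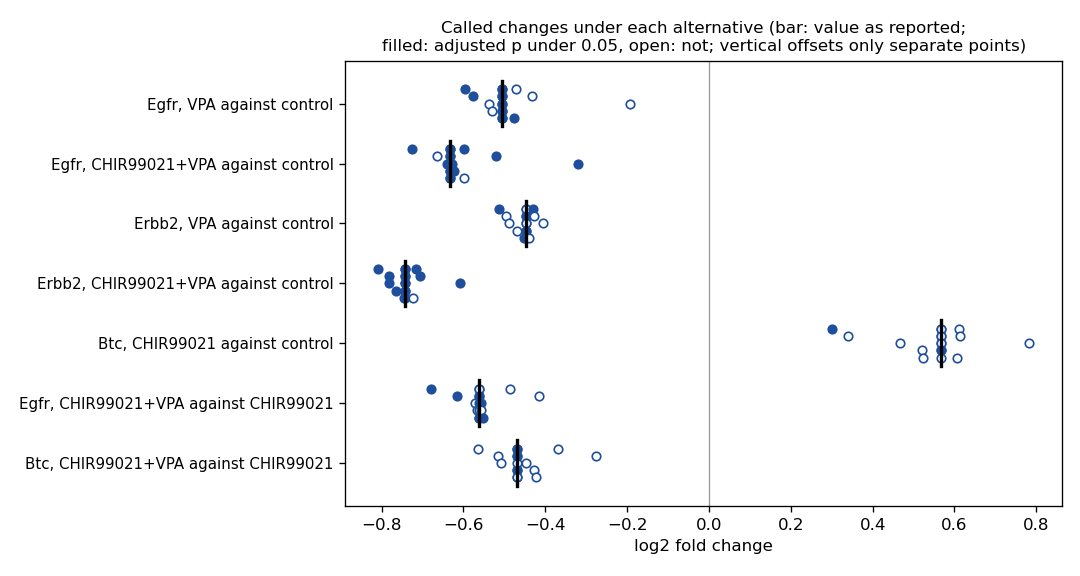
Log2 fold change (x axis) of each called member under every alternative treatment of the data; black bars are the values as reported, filled points have an adjusted p under 0.05 and open points do not. Every point keeps the direction of its bar; the call of Erbb2 with both compounds ended in 1 of 18 alternatives, that of Egfr with both in 2 of 18 and that of Btc with CHIR99021 in 13 of 18.

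The genes around the receptors were described with lists of the pathway's other parts. Their counts are to be read beside the share of all tested genes that passed in either direction: 1.12% for CHIR99021, 10.9% for VPA and 15.5% for the combination. Of 6 further ligands and receptors, 2 could be tested, and Erbb4 was not among them. Nrg4, a neuregulin that binds Erbb4, fell by 1.48 ± 0.23 with CHIR99021 (adjusted p = 0.0434, limma) and by 1.70 ± 0.23 with the combination (adjusted p = 0.00514). With VPA it gave -0.79 (adjusted p = 0.0737). Epgn, another ligand of Egfr, gave -0.12, -0.16 and -0.03 and passed nowhere.

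Of 9 tested genes for ligand processing and shedding, 1 fell with CHIR99021, 2 rose with VPA, and 3 rose and 2 fell with the combination, beside 10.9% of all genes with VPA and 15.5% with the combination. Adam15, a membrane metalloprotease, read 0.36 and 0.38 on the control arrays and 0.52 and 0.35 on the CHIR99021 arrays. The VPA arrays read 2.18 and 1.51, and those of the combination 1.93 and 1.63. It rose by 1.48 ± 0.22 with VPA (adjusted p = 0.0118, limma) and by 1.41 with the combination (adjusted p = 0.00873). Its other detected probe gave 0.41 and 0.39, so the size of this rise depends on the probe. Adam9, of the same family, rose by 0.66 and 0.88 (adjusted p = 0.0413 and 0.0121, limma). Adam17, the main sheddase of amphiregulin, passed with the combination alone (0.70 ± 0.16, adjusted p = 0.0337, limma). It was outside the 4 genes that the naming rule gives and is named for its role. Pcsk5, a proprotein convertase, fell by 0.91 with CHIR99021 and by 1.05 with the combination (adjusted p = 0.0455 and 0.00546, limma); its 3 other probes ranged from -0.62 to 0.06 with CHIR99021 and from -1.18 to -0.22 with the combination. Frmd8, a partner of the iRhom proteins that carry Adam17 to the surface, fell by 0.69 with the combination (adjusted p = 0.0207, limma). The median of the 9 genes was 0.05, -0.05 and 0.26 in the 3 comparisons with control.

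Of 36 tested genes of the signal relay from receptor to ERK, AKT and STAT proteins, 0 passed with CHIR99021 in limma. With VPA 1 fell, below the 10.9% of all genes, and with the combination 2 rose and 3 fell, near the 15.5% of all genes. Stat5a, a transcription factor that ErbB receptors activate, fell by 0.53 ± 0.12 with VPA and by 0.87 ± 0.12 with the combination (adjusted p = 0.0364 and 0.00546, limma). With the combination, Araf, a RAF kinase, and Src, a cytoplasmic tyrosine kinase, fell by 0.44 and 0.45 (adjusted p = 0.024 and 0.0263), and Pik3cb, a PI3K catalytic subunit, rose by 0.41 (adjusted p = 0.0351, limma). The medians were -0.06, 0.01 and -0.05, near those of all genes.

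Of 28 tested genes of receptor traffic and feedback inhibition, 1 fell with CHIR99021, 1 rose with VPA, and 1 rose and 1 fell with the combination. For VPA and the combination these shares are below the 10.9% and 15.5% of all genes. Lrig3, of a family of transmembrane proteins that bind ErbB receptors, fell by 1.02 ± 0.12 with CHIR99021 and by 1.01 ± 0.12 with the combination (adjusted p = 0.0213 and 0.00324, limma). With VPA it gave -0.25 (adjusted p = 0.233). Socs5, a SOCS-box protein that can lower Egfr levels, rose by 0.43 ± 0.09 with VPA and by 0.80 ± 0.09 with the combination (adjusted p = 0.035 and 0.00352, limma). With CHIR99021 it gave 0.29 (adjusted p = 0.264, limma). Ptprj, a receptor phosphatase, gave 0.57 with VPA and 0.70 with the combination, and Eps15, an endocytic adaptor, gave 0.45 and 0.27; none of these passed, and the other probe of each was negative in both.

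Of 19 tested transcripts known to respond to ERK signalling, 0 passed with CHIR99021, 1 rose and 1 fell with VPA, and 4 rose and 1 fell with the combination. The VPA count is near the 10.9% of all genes, and 15.5% of all genes passed with the combination. Elk3, an ETS factor, read -0.01 and 0.07 in control, 1.95 and 2.66 on the VPA arrays, and 2.39 and 2.92 for the combination. It rose by 2.27 ± 0.29 and by 2.625 ± 0.29 (adjusted p = 0.00734 and 0.003, limma), and by 1.02 and 1.23 on its other probe. Egr1 and Jun, immediate early factors, rose with the combination by 1.06 ± 0.26 and 0.91 ± 0.19 (adjusted p = 0.0361 and 0.0232, limma). Ier2, also an immediate early gene, fell by 0.66 with VPA and by 0.47 with the combination (adjusted p = 0.0118 and 0.0235, limma). The list therefore held changes in both directions, and its medians were 0.00, 0.14 and 0.18.

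**Figure D5:**
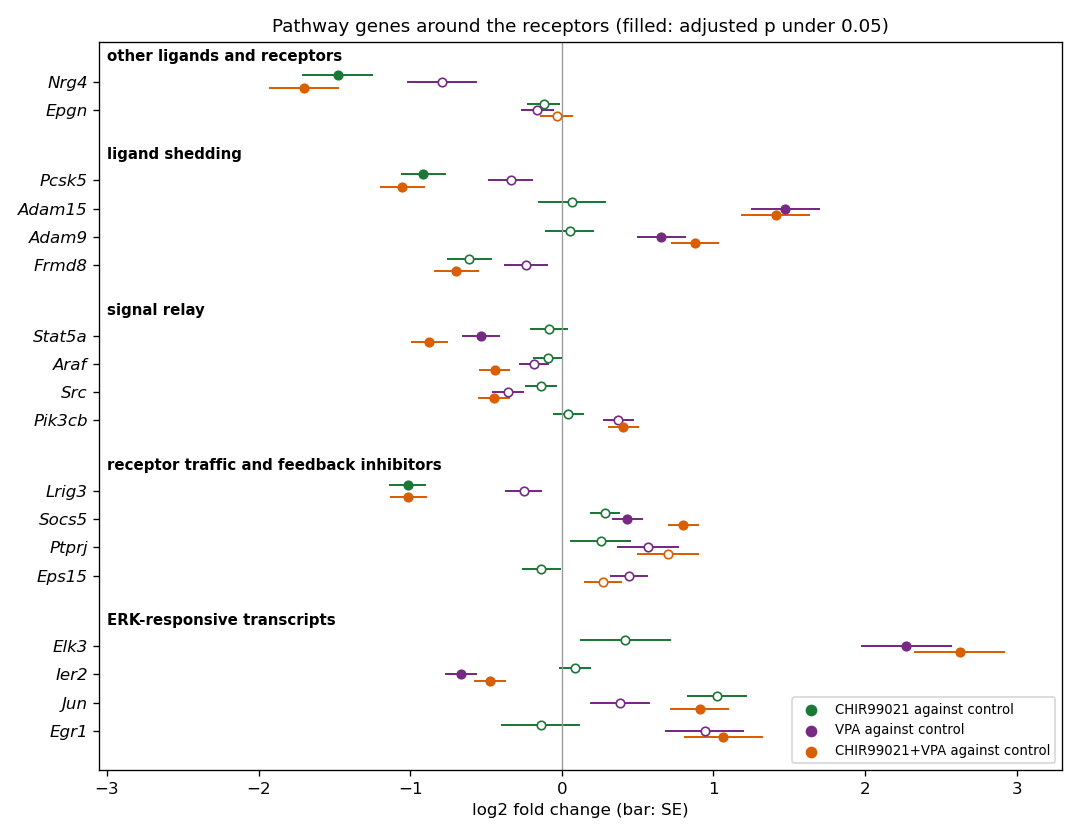
Log2 fold change against control (x axis, bars are SE) of the named genes of the 5 pathway lists, for CHIR99021, VPA and both compounds; filled points have an adjusted p under 0.05. Elk3 shows the largest rise among these genes, at 2.27 with VPA and 2.625 with both compounds, and Nrg4 the largest fall, at -1.70 with both.

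These pathway calls also rested on the control arrays. Most calls against control over all tested genes ended as well when either control array was left out. Of the 24 calls of the named genes against control, 3 remained without control line 1 and 4 without control line 2. With Agilent's ratios 9 of the 24 ended, among them Elk3 with VPA and Egr1 with the combination, and with median centring 9 ended. Keeping outlier spots in the background model and fitting only the compared groups ended 6 each, the variance trend 4 and the mean of a gene's probes 3. With the line as a replicate block 24 of 24 remained.

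Markers of cell types moved in the same arrays, and their part in the changes above was not tested. Over 9 tested goblet cell markers, 9 fell with the combination, 7 with VPA and 1 with CHIR99021. Their mean log2 ratio was 0.18 and 0.24 in control and -0.96 on both CHIR99021 arrays. It was -1.55 and -1.28 on the VPA arrays, and -2.91 and -2.84 for the combination. Of 12 enterocyte markers, 3 fell under CHIR99021, 3 under VPA and 7 under both compounds, and the mean ratios ran from -0.02 to 0.00 in control, from -1.83 to -1.45 with CHIR99021, from -0.50 to -0.25 with VPA and from -2.69 to -1.76 with the combination. Of 8 enteroendocrine markers, 4 fell with VPA and 4 with the combination, with mean ratios of 0.145 and 0.147 in control, -2.30 and -1.29 on the VPA arrays, and -2.88 and -1.53 for the combination. Of 7 tuft cell markers, 1 fell with VPA and 2 with the combination, and Pou2f3 was above background on 0 arrays.

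Paneth cell markers had a mean ratio of 0.52 and 0.42 on the control arrays and 0.91 and 0.93 on the CHIR99021 arrays. It was -0.08 and -0.61 for VPA, and -1.20 and -0.58 for the combination. Of these 8 markers, 0 rose with CHIR99021 in limma, 2 fell with VPA and 5 fell from CHIR99021 to the combination. Btc and this list were thus both highest in the CHIR99021 arrays. Of 9 crypt stem cell markers, 2 rose with the combination (Rnf43 and Tnfrsf19) and 0 passed with either compound alone in limma. With CHIR99021, 9 of the 9 were positive, with a median of 0.45. With VPA, 6 were positive, among them Tnfrsf19 at 2.00 (adjusted p = 0.0626, limma). The other 3, Lgr5, Ascl2 and Cdca7, gave -0.26, -0.31 and -0.57 (adjusted p = 0.705, 0.221 and 0.149, limma). The mean ratios of this list were -0.07 and -0.115 in control and 0.615 and 0.43 for CHIR99021. They were 0.32 and -0.06 for VPA, and 0.46 and 0.775 for the combination. General epithelial markers moved as well. Of 10, Cdx1, Krt8 and Krt18 fell with VPA, by 0.58, 0.84 and 0.64, and 4 fell and 1 rose (Cdh1) with the combination, where the median was -0.43. With CHIR99021, Krt8 fell by 0.75 (adjusted p = 0.0449, limma). The mean ratios of these markers were -0.18 and -0.15 in control and -0.525 and -0.54 for CHIR99021. They were -0.32 and -0.34 for VPA, and -0.42 and -0.56 for the combination. Of 7 tested fibroblast markers, Col1a1 rose with VPA (0.79, adjusted p = 0.0217) and with the combination (1.01, adjusted p = 0.00669, limma). The mean ratios of that list were 0.08 and 0.16 in control, 0.17 and 0.72 for VPA, and 0.47 and 0.89 for the combination. Of 6 tested immune cell markers, 0 passed in limma in the 3 comparisons with control, and 1 (Adgre1 with VPA, 0.51) had an unadjusted p under 0.05. Organoids are a mixture of cell types, and in such bulk RNA fewer cells of a type and less RNA per cell cannot be told apart.

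The genes whose ratios followed a member most closely over the 8 arrays were named for the 3 members with the widest range of group means. Pearson correlations across 8 arrays of 4 groups mostly follow the group means and are given as a description. For Egfr they were Ctss (r = 0.997), a lysosomal protease, Cenpv (0.99) and Cldn3 (0.99), a tight junction protein. Ctss had group means of 0.10 for control, -0.26 for CHIR99021, -2.79 for VPA and -3.42 for the combination, a far wider range than Egfr. For Erbb2 they were Nhlrc2 (0.992), Mocs1 (0.991) and Sash1 (0.987), whose group means fell from control through both single compounds to the combination. For Areg they were Steap1 (0.984), Acot7 (0.978) and Trmt6 (0.978), each lowest in control and highest with the combination.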

How the data were processed

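RNA of 8 organoid cultures was hybridised to two-colour Agilent whole mouse genome arrays with 45018 spots. Spot intensities in both dyes, the log10 ratios and the flags were deposited as scanner output; the file headers name Feature Extraction 10.5.1.1. The deposited series table of log2 ratios holds the same ratios turned to log2 (19228 spots with values, largest difference 5e-10) and served as the Agilent alternative. Precision is limited by having 8 arrays.

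With limma 3.58.1 in R 4.3.3, median signals were background-corrected by normexp (offset 50), fitted without outlier spots, and normalised by loess within arrays, with control and outlier spots at weight 0. Leaving outliers out of the normexp fit departs from the usual order, which is an alternative. Spots of a probe were averaged, and the brightest probe stood for a gene. A gene was tested if that probe was well above background in Cy5 (in at least 0.5 of its spots) on both arrays of a group. Of 19334 such genes, 79 lacked a value and 19255 were fitted on all 8 arrays with 4 groups (4 residual and 2.68 prior degrees of freedom). The fit was tested on simulated ratios with independent noise on each array, which leaves out the correlation by line given below. Symbols came from RefSeq accessions, with 27479 of 41174 probes named.

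The organoid line is the replicate number in the labels. Pairs of groups correlated by line in their deviations from group means. For pairs with control r was 0.122 to 0.245, and for pairs of treated groups 0.551 to 0.755. The line, or the slide it filled, thus pairs the samples. The line as a block is an alternative fit. With 2 cultures a group, p-values measure the spread between 2 lines, pooled over the 4 groups. Control arrays held control RNA of the same line in both dyes. Their spread thus largely leaves out differences between control cultures, so the pooled spread can understate that of treated cultures. The members, the pathway and marker lists and the tests were chosen with earlier results of these data known. Named genes are all 10 members, up to 4 tested genes per pathway list with the lowest adjusted p against control, and 3 correlates for each of 3 members. Of the lists, Nrg2, Adam10, Cblb, Dusp5, Elk1, Ccnd1, Defa17, Defa24, Defa26, Pla2g2a, Olfm4, Muc2 and Cd68 matched no probe. Alternatives were other backgrounds, scalings, filters, probe choices and fits, and leaving out each array. Leaving out spots with a population-outlier background, the fit over all 25624 probes and the comparison of VPA with CHIR99021 were added after seeing the data.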

Additional observations from a re-analysis of the deposited data

Results flagged for a closer look

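Hbegf had differences of opposite sign in the 2 organoid lines. Averaged over the 3 treated cultures, its log2 ratio was 0.35 above control in line 1 and -0.13 from control in line 2, a difference of 0.48. Every treated culture of line 1 was above its control and every one of line 2 below it. In line 2 these differences were -0.19, -0.12 and -0.08, within the SE of 0.23 of a group difference. The difference between the lines was not tested, and line and slide cannot be told apart.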

How the results depend on the processing

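With the line as a replicate block, the count of called members with the combination was 4 (Egfr, Erbb2, Erbb3 and Areg) in place of 2; with VPA it was 3, and against CHIR99021 it was 3. The block ended no call. Over all tested genes it raised the calls with the combination from 2989 to 4815. Calls with VPA went from 2090 to 3745, and those of the combination against CHIR99021 from 1930 to 3414. For CHIR99021, VPA and the combination against CHIR99021, in that order, the counts were 0, 1 and 1 with outlier spots kept in the background model and also with Agilent's log ratios, 0, 0 and 0 with median centring, and 2, 0 and 0 with only the compared groups fitted. Over all tested genes, the same comparisons gave 216, 2090 and 1930 calls in the fit as reported. They gave 0, 1513 and 1630 with outlier spots kept, and 36, 1521 and 1336 with Agilent's log ratios. Median centring gave 164, 1129 and 1155, and only the compared groups fitted gave 1084, 1575 and 290. For the members, the mean of a gene's probes gave 0 for CHIR99021 and 0 for the combination against CHIR99021. A variance trend with robust fitting gave 0 for CHIR99021. Treated ratios tested against 0 gave 2 for CHIR99021 and 4 for the combination. Over all tested genes, that setting gave 2567 and 6362 calls, against 216 and 2989 in the fit as reported. Leaving out each array in turn gave 0 for CHIR99021, 0 to 2 for VPA, 0 to 3 for the combination, and 0 to 2 for the combination against CHIR99021. The combination against VPA and the departure from additivity stayed at 0 in every alternative fitted to them. The added alternative without population-outlier backgrounds changed no count. Areg changed sign in 4 cases. Without the combination array of line 1 it read -0.26 against CHIR99021 and -0.51 against VPA, and without VPA line 2 it read -0.24 against VPA. Without the combination array of line 2 its departure from additivity was 0.10. Over all arrays left out, these 3 values ran from -0.26 to 1.575, from -0.51 to 1.32 and from -1.73 to 0.10. Where an array was left out, the lone array of that group was assumed to vary like the others. Calls against control over all tested genes also dropped when either control array was left out. The causes of these shifts were not tested. Dim signal limits Egf, the dimmer Erbb3 probes and Ereg.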
